A study of Homo sapiens with 24 samples.

Results

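Matrix metalloproteases (MMPs) are zinc-dependent proteases that cut collagens, laminins and other proteins outside the cell, and tissue inhibitors of metalloproteases (TIMPs) bind and block them. RNA of 7 MMP genes (MMP1, MMP2, MMP7, MMP9, MMP13, MMP14 and MMP15) and 3 TIMP genes (TIMP1, TIMP2 and TIMP3) is described here in pancreatic cancer cells given AM-9747, an inhibitor of the arginine methyltransferase PRMT5 that acts together with methylthioadenosine. These 10 genes were chosen by symbol, as members of the protease family and of its inhibitors, from the 60366 entries of the gene count table. The choice was made with earlier results of these data known. All 10 symbols were found, and the table holds 28 entries named MMP or TIMP with a number. BXPC3, MIAPACA2 and PSN1 are established lines from human pancreatic adenocarcinomas. The labels write WT as their genotype, and the series presents them as lines that lack MTAP, the enzyme that breaks down methylthioadenosine. Cells were harvested on day 6 after AM-9747 (100 nM for BXPC3 cells, 150 nM for MIAPACA2 cells, 100 nM for PSN1 cells) or after DMSO vehicle. Dose and line therefore cannot be told apart for MIAPACA2. Each of the 6 groups had 4 libraries. The labels do not say whether replicates were separate cultures, so p-values cover no more than the variation among these libraries, which may be technical.

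MMPs are made as inactive precursors, and other proteases, plasmin and other MMPs among them, cut off the part that blocks the active site. MMP14 sits in the cell membrane and activates MMP2 in a complex that also needs TIMP2, so the inhibitor is part of the activation machinery. In pancreatic cancer, MMPs and TIMPs are known from the dense matrix around the tumour cells, to which both tumour cells and fibroblasts contribute. RNA levels say nothing of how much of each protease was active.

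Levels are in CPM, the count of a gene divided by the library total and multiplied by 1e6, after scaling of library totals by the trimmed mean of M-values (TMM). Library totals ran from 22.4 to 45.6 (in units of 1e6 counts), so 3 counts, the upper limit that a count of 0 allows, stood for 0.0658 to 0.134 CPM before scaling. These limits cover counting error only. The mitochondrial share of counts was 7.98, 14.1, 26.8 and 31.1% in AM9747 libraries of PSN1, against 17.4, 43.8, 37.6 and 33.5% in vehicle libraries of PSN1, and 4.34 to 20.5% in the other lines. Vehicle replicate 1 of PSN1, with the lowest share of its group, stood apart from the other vehicle replicates in several genes below, and vehicle replicate 3 of PSN1 had the fewest genes with a count (16646). MTAP was at 0.138 to 5.57 CPM in the 24 libraries, and PRMT5 averaged 43.2 to 138 CPM in the AM9747 groups and 46.7 to 114 CPM in the vehicle groups. Summed epithelial markers (EPCAM, KRT8, KRT18, KRT19, KRT7, CDH1, CLDN4 and MUC1, with all 8 detected in each group) were at 5884 to 8061 CPM in AM9747 and 8231 to 13222 CPM in vehicle libraries of BXPC3. The same sum was 1174 to 1387 CPM in AM9747 and 1298 to 1575 CPM in vehicle libraries of MIAPACA2, and 1622 to 1897 CPM in AM9747 and 1759 to 2370 CPM in vehicle libraries of PSN1.

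RefSeq sequence before the transcription start (build GRCh38.p14) was at hand for 5 of the 10 genes, MMP7, MMP14, MMP15, TIMP1 and TIMP3. Of these, MMP14, TIMP1 and TIMP3 changed in at least 1 line, and their upstream sequences are printed with that of MMP7, whose promoter differs most from them in base composition. Capitals mark GC boxes (GGGCGG), AP-1 sites (TGANTCA), an AP-1-like variant (TGAGTAA) and TATA boxes (TATAAA) on either strand. The EGR1 motif GCGGGGGCG was also searched and was in none of the 5. Each sequence covers the 250 bases before the RefSeq start, except that of TIMP1, which ends where an exon of a longer transcript begins in GENCODE 29.
MMP14, chr14:22836335-22836584, plus strand: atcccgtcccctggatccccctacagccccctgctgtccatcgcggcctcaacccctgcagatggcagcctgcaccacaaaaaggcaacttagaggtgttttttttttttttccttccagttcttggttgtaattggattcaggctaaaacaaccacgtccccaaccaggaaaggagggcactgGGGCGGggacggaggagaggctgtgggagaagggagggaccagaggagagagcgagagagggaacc
TIMP1, chrX:47582186-47582312, plus strand: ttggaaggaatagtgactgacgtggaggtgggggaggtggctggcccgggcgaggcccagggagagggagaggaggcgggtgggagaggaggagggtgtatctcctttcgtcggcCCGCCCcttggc
TIMP3, chr22:32801455-32801704, plus strand: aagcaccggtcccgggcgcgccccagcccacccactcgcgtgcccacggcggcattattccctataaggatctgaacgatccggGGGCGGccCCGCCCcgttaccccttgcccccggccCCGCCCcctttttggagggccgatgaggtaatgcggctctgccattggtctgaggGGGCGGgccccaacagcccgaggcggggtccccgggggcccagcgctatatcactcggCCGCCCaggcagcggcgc
MMP7, chr11:102530748-102530997, minus strand: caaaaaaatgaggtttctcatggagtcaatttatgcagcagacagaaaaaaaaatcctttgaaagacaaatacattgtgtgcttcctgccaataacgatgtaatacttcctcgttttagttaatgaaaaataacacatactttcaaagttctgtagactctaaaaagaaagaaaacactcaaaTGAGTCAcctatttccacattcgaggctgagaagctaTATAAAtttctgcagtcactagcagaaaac

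The MMP14 sequence has 56.8% G and C and a single GC box, at −66 to −61 from the start. TIMP3 has 72.4% G and C with 5 GC boxes, and MMP15 has 74.8% with 5. TIMP1 has 64.8% G and C over its 250 bases, with GC boxes at −135 and −45 and the variant TGAGTAA at −101 to −95, the last 2 of which lie past the stretch printed. MMP7 has 33.6% G and C, an AP-1 site at −67 to −61 and a TATA box at −30 to −25. Of 35116 RefSeq promoters, 42.6% hold a GC box, 6.57% the AP-1 motif, 2.21% the variant, 10.7% a TATA box and 4.72% the EGR1 motif in the same window, and the median G and C content is 58.0%.

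**Figure D1:**
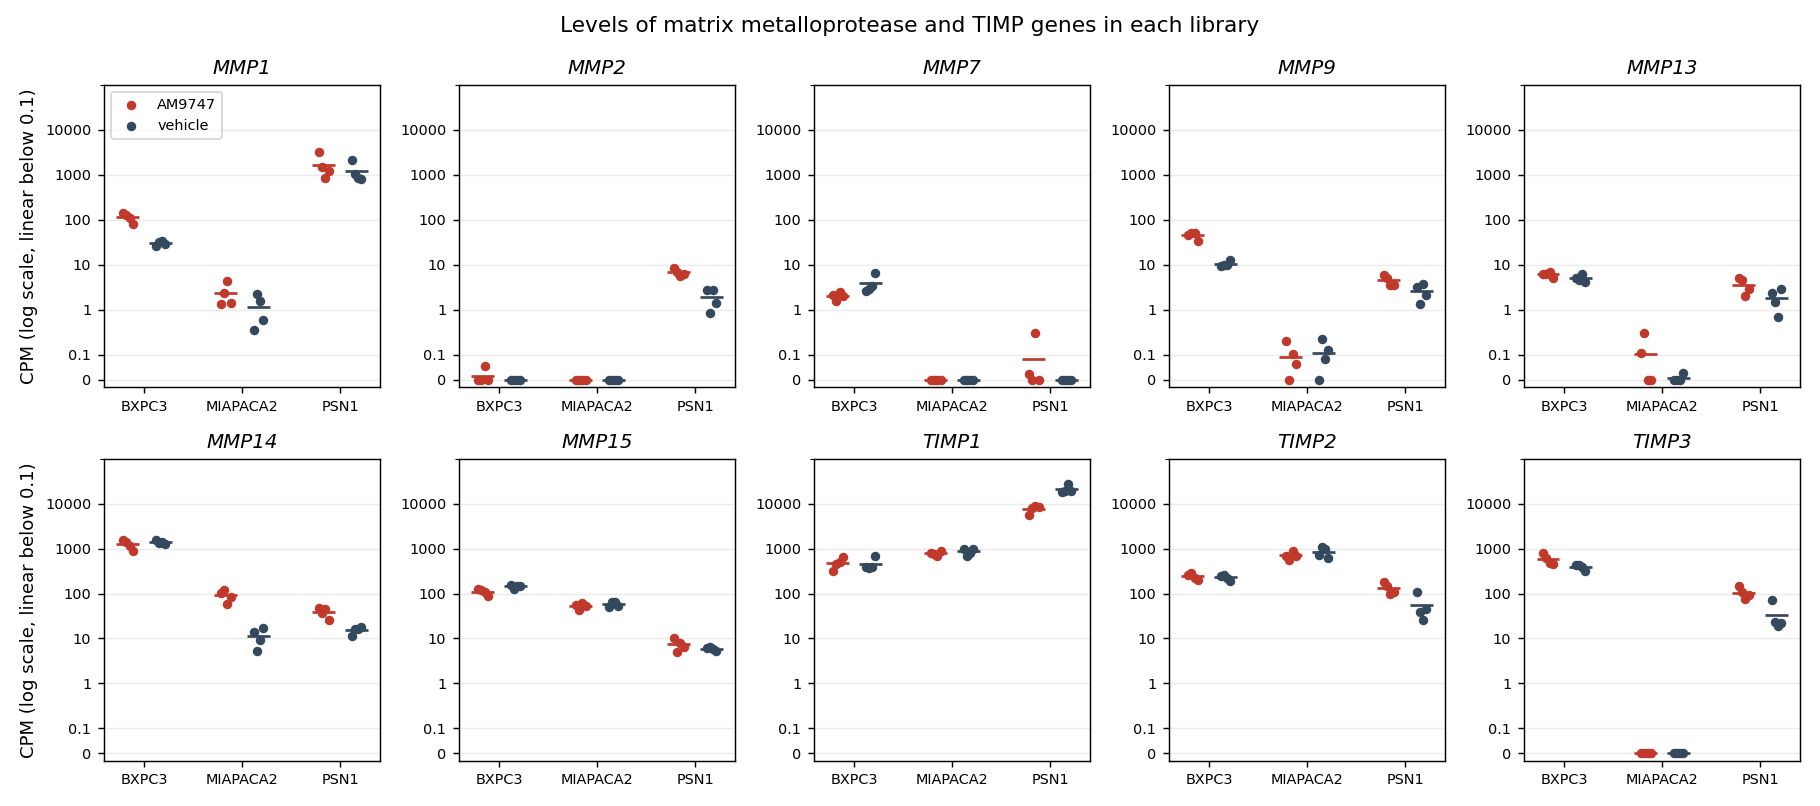
Level of each of the 10 genes in every library, in CPM on a log scale (linear below 0.1), with AM9747 libraries left of vehicle libraries in each line and a bar at the mean of 4. AM9747 libraries of MIAPACA2 lie above all vehicle libraries for MMP14, those of PSN1 lie below all vehicle libraries for TIMP1, and TIMP3 is at 0 in all 8 libraries of MIAPACA2.

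With AM9747 the collagenase MMP1 rose in BXPC3, and no other change of a collagenase passed the test. MMP1 (chr11:102789920-102798160, minus strand, GRCh38, ENSG00000196611) is the interstitial collagenase, which cuts fibrillar collagens. In BXPC3 it had 142, 129, 108 and 81.8 CPM with AM9747, against 26.8, 32.7, 33.2 and 29 CPM with vehicle. The lowest AM9747 library stood above all 4 vehicle libraries, and MMP1 rose by 1.95 ± 0.17 on the log2 scale (SE; edgeR adjusted p = 7.83e-05), a 3.87-fold difference. In bulk RNA, more cells with the transcript and more transcript per cell cannot be told apart, here and below.

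In PSN1, MMP1 was at 3168, 1513, 865 and 1192 CPM with AM9747, against 2132, 1051, 852 and 799 CPM with vehicle. The groups overlapped, replicate 1 was the highest in both, and the difference of 0.46 ± 0.43 did not pass the test (edgeR adjusted p = 0.511). With the mitochondrial share as a covariate the difference was −0.27, and without AM9747 replicate 1 it was −0.03, so its sign was not settled. In MIAPACA2, MMP1 had 1.3, 2.34, 4.36 and 1.38 CPM with AM9747, against 0.360, 2.19, 1.52 and 0.598 CPM with vehicle. These levels rested on 12 to 173 counts per library, overlapped, and differed by 1.07 ± 0.57 (edgeR adjusted p = 0.244). With the mitochondrial share as a covariate the difference was 1.21 ± 0.38 and passed (adjusted p = 0.0214, the smallest of 16 alternatives, of which the largest was 0.506). The difference between the MMP1 responses did not pass for PSN1 minus BXPC3 (−1.45 ± 0.61, edgeR adjusted p = 0.136) or for MIAPACA2 minus BXPC3 (−0.93 ± 0.65, edgeR adjusted p = 0.647).

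MMP13 (chr11:102942995-102955734, minus strand), the collagenase best known from cartilage and bone, was low in all lines. It had 6.34, 6.25, 6.78 and 4.97 CPM with AM9747 and 5.17, 4.58, 6.25 and 4.19 CPM with vehicle in BXPC3 (0.31 ± 0.17, edgeR adjusted p = 0.212). In PSN1 it had 5.06, 4.49, 2.04 and 2.95 CPM with AM9747 and 2.31, 1.45, 0.689 and 2.96 CPM with vehicle (0.93 ± 0.57, edgeR adjusted p = 0.314). Both pairs of groups overlapped. In MIAPACA2 the 8 libraries held 18 counts with AM9747 and 1 with vehicle, too few for the test.

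The gelatinases MMP2 and MMP9 cut denatured collagen and the type IV collagen of basement membranes, and each passed the test in a different line. MMP9 (chr20:46008908-46016561, plus strand, ENSG00000100985) had 47.0, 52.1, 50.6 and 33.2 CPM with AM9747 in BXPC3, against 9.62, 10.1, 10.0 and 12.8 CPM with vehicle. The groups did not overlap, and MMP9 rose 4.39-fold, by 2.13 ± 0.18 on the log2 scale (edgeR adjusted p = 6.39e-05). It was at 6.00, 5.10, 3.53 and 3.60 CPM with AM9747 in PSN1, against 3.13, 1.36, 3.73 and 2.15 CPM with vehicle, and these groups overlapped (0.79 ± 0.46, edgeR adjusted p = 0.286). The difference between the responses, PSN1 minus BXPC3, was −1.30 ± 0.58 and did not pass (edgeR adjusted p = 0.157), nor did MIAPACA2 minus BXPC3 at −2.36 ± 0.79 (edgeR adjusted p = 0.141). Under DESeq2 both passed (−1.40 ± 0.44, adjusted p = 0.0147, and −2.34 ± 0.66, adjusted p = 0.0107), the smallest of 23 alternatives each, of which the largest were 0.301 and 0.421. MIAPACA2 had at most 9 counts of MMP9 in any library.

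MMP2 (chr16:55389700-55506691, plus strand, ENSG00000087245) was detected in PSN1, with 8.32, 6.92, 5.75 and 6.25 CPM with AM9747 against 2.74, 0.843, 2.70 and 1.41 CPM with vehicle. All 4 AM9747 libraries stood above all 4 vehicle libraries, and MMP2 rose by 1.80 ± 0.46 on the log2 scale (edgeR adjusted p = 0.0323). This call was lost without vehicle replicate 2 or 4, without any 1 of the 4 AM9747 replicates (adjusted p = 0.0653 to 0.106) and with the mitochondrial share as a covariate (adjusted p = 0.1), and over the 16 alternatives the adjusted p ran from 0.00155 to 0.106. The 16 libraries of the other lines held 2 counts in all, in AM9747 replicate 3 of BXPC3.

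MMP7 (chr11:102520508-102530753, minus strand), or matrilysin, is a small MMP of epithelial cells. In BXPC3 it had 2.15, 1.56, 2.43 and 2.04 CPM with AM9747 against 2.60, 2.93, 3.41 and 6.51 CPM with vehicle. The groups did not overlap, and the difference of −0.90 ± 0.33 did not pass the test (edgeR adjusted p = 0.0644). It passed under DESeq2 (adjusted p = 0.0359) and without vehicle replicate 1 (0.0478), and over 16 alternatives the adjusted p ran from 0.0358 to 0.585. MIAPACA2 had no count of MMP7, and PSN1 had 1 and 10 counts in AM9747 replicates 1 and 3 and none elsewhere.

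The membrane proteases gave the largest single response. MMP14 (chr14:22836557-22849027, plus strand, ENSG00000157227), the membrane-type MMP that activates MMP2 and also cuts collagen itself, had 103, 123, 58.2 and 85.6 CPM with AM9747 in MIAPACA2, against 14.1, 5.38, 9.38 and 16.8 CPM with vehicle. The lowest AM9747 library was more than 3 times the highest vehicle library. MMP14 rose by 3.05 ± 0.36 on the log2 scale when MIAPACA2 was fitted alone (edgeR adjusted p = 8.07e-04), an 8.28-fold difference, and under the 17 alternatives the log2 difference stayed between 2.80 and 3.30 and passed the test each time.

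In PSN1, MMP14 had 47.0, 36.2, 45.9 and 26.0 CPM with AM9747, against 11.3, 16.3, 16.3 and 18 CPM with vehicle. The groups did not overlap, and MMP14 rose by 1.29 ± 0.27 (edgeR adjusted p = 0.016). The call was lost without AM9747 replicate 2 (adjusted p = 0.0554, the largest over 17 alternatives, of which the smallest was 4.11e-04). It held with the mitochondrial share as a covariate (adjusted p = 0.0378). In BXPC3, where MMP14 was far higher, AM9747 libraries had 1519, 1437, 1143 and 873 CPM and vehicle libraries 1552, 1341, 1398 and 1295 CPM. These groups overlapped, and the difference was −0.13 ± 0.17 (edgeR adjusted p = 0.587).

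Whether the response of MMP14 differed between the lines was tested in the joint fit of all 24 libraries. That fit shares 1 spread over the lines, while the biological coefficient of variation was 55.1% in PSN1, against 32.1% in MIAPACA2 and 26.6% in BXPC3. On simulated data with these spreads it made more false calls than its threshold allows for differences that involve PSN1, so each such call here stands beside the voom fit, which gives each group its own spread. For differences that involve PSN1, that fit made fewer false calls on the same data, but still more than the threshold allows. It also found fewer of the 4-fold changes, 40.6% for PSN1 minus BXPC3 and 31.2% for PSN1 minus MIAPACA2, against 54.7% and 60.9%. For MIAPACA2 minus BXPC3, 7.58% of its calls were false, against 3.33% in the joint edgeR fit. MIAPACA2 minus BXPC3 was 3.16 ± 0.41 on the log2 scale (edgeR adjusted p = 8.69e-05), and it passed under all 23 alternatives. PSN1 minus MIAPACA2 was −1.69 ± 0.41 (edgeR adjusted p = 0.0104) and PSN1 minus BXPC3 was 1.48 ± 0.40 (edgeR adjusted p = 0.0263). Both of these calls were lost when voom weighted each group by its own spread (adjusted p = 0.0613 and 0.0902, the largest over the 23 alternatives of each; the smallest were 6.89e-04 and 0.00854). The PSN1 minus BXPC3 call was also lost without vehicle replicate 1, AM9747 replicate 3 or AM9747 replicate 4 of BXPC3, or AM9747 replicate 1 of PSN1 (adjusted p = 0.0518 to 0.057).

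MMP15 (chr16:58025566-58046901, plus strand), another membrane-type MMP, passed the test in no line when each was fitted alone. In BXPC3 it had 124, 122, 107 and 90.1 CPM with AM9747, against 155, 127, 144 and 149 CPM with vehicle. The groups did not overlap, but the difference of −0.34 ± 0.13 did not pass the test (edgeR adjusted p = 0.0711). It passed under voom (−0.32 ± 0.09, adjusted p = 0.0118) and with the mitochondrial share as a covariate (−0.35 ± 0.10, adjusted p = 0.0162), and over 17 alternatives the adjusted p ran from 0.0118 to 0.254. It was at 42.7 to 63.1 CPM with AM9747 and 50.3 to 63.9 CPM with vehicle in MIAPACA2 (−0.07 ± 0.13, edgeR adjusted p = 0.769, with a sign that turned under 3 alternatives), and at 5.13 to 10.2 CPM with AM9747 and 5.38 to 6.42 CPM with vehicle in PSN1 (0.28 ± 0.33, edgeR adjusted p = 0.618). PSN1 minus BXPC3 was 0.67 ± 0.26 (edgeR adjusted p = 0.0966) and passed without scaling (0.0324) and without vehicle replicate 1 of PSN1 (0.048), the largest of 23 alternatives being 0.347.

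**Figure D2:**
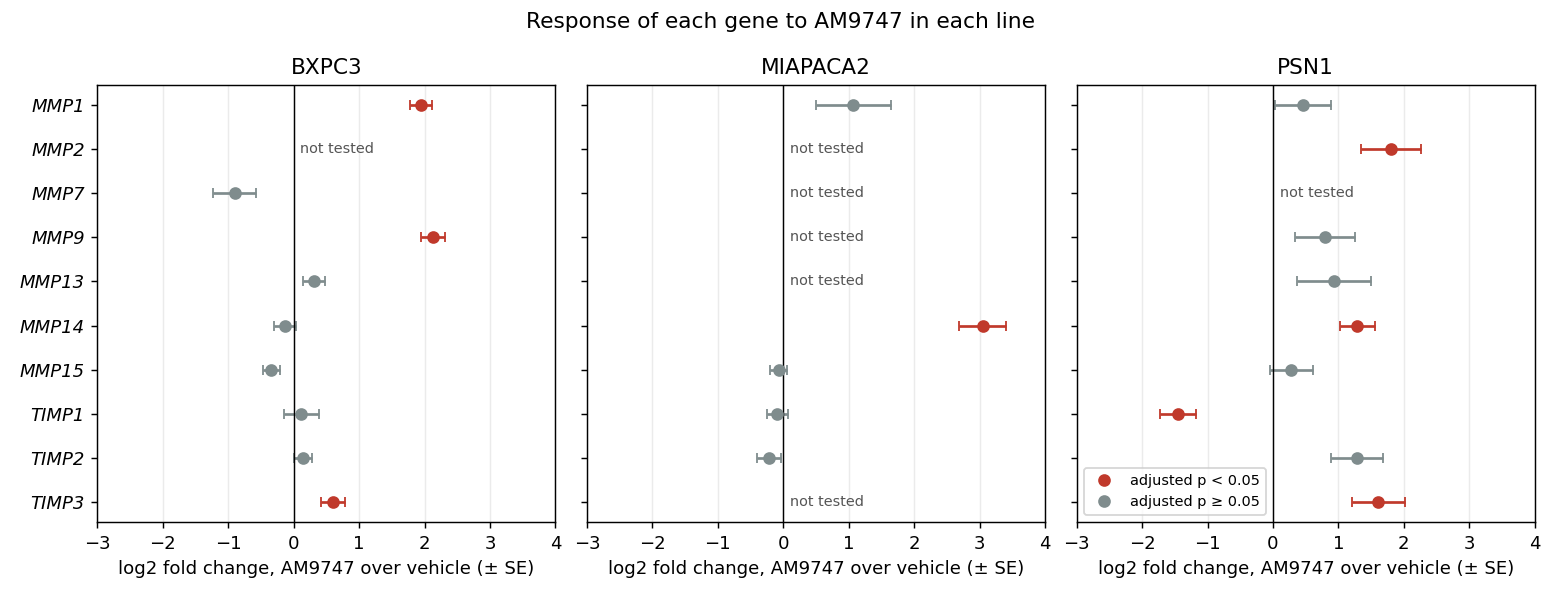
Log2 fold change of each gene, AM9747 over vehicle, in the fit of each line (points, with bars of 1 SE; red where the adjusted p was below 0.05; genes with too few counts marked as not tested). MMP1, MMP9 and TIMP3 passed in BXPC3, MMP14 in MIAPACA2, and MMP2, MMP14, TIMP1 and TIMP3 in PSN1, where TIMP1 alone lies left of 0.

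Among the inhibitors, TIMP1 fell in PSN1 and in no other line. TIMP1 (chrX:47582313-47586789, plus strand, ENSG00000102265) blocks most soluble MMPs and is a weak inhibitor of MMP14. In PSN1 it had 5649, 8165, 8802 and 8453 CPM with AM9747, against 17863, 19013, 26759 and 19289 CPM with vehicle. The highest AM9747 library was below the lowest vehicle library, and TIMP1 fell by 1.45 on the log2 scale (SE 0.27, edgeR adjusted p = 0.0101), which makes it 2.73-fold lower with AM9747. TIMP1 made up 0.650 to 0.896% of all counts in AM9747 libraries and 1.39 to 2.08% in vehicle libraries of PSN1. The call was lost without AM9747 replicate 2 (adjusted p = 0.053, the largest over 17 alternatives, of which the smallest was 2.79e-07) and held with the mitochondrial share as a covariate (−1.22 ± 0.22, adjusted p = 0.00975).

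TIMP1 lies within SYN1, a neuronal gene on the opposite strand, and the strand setting of the counting is not given in the sources used here, so reads of the pair cannot be told apart where they overlap. SYN1 averaged 109 CPM with AM9747 and 278 CPM with vehicle in PSN1, and at most 1.55 CPM in the groups of the other lines. In BXPC3, TIMP1 had 321, 458, 494 and 640.5 CPM with AM9747 against 381, 361, 383 and 669.6 CPM with vehicle (0.12 ± 0.27, edgeR adjusted p = 0.774; voom 0.38, adjusted p = 0.0314, the smallest of 17 alternatives, of which the largest was 0.969). In MIAPACA2 it had 818, 764, 686 and 903 CPM with AM9747 against 989.8, 696, 814 and 964 CPM with vehicle (−0.09 ± 0.16, edgeR adjusted p = 0.732). Groups overlapped in both lines, and the sign turned without AM9747 replicate 4 in BXPC3 and without scaling in MIAPACA2. The difference of the TIMP1 response itself passed for PSN1 minus BXPC3 (−1.52 ± 0.34, edgeR adjusted p = 0.00874) and for PSN1 minus MIAPACA2 (−1.29 ± 0.34, edgeR adjusted p = 0.0188), and both kept passing under their 23 alternatives, voom among them (adjusted p = 0.0181 and 0.0389, over ranges of 1.44e-04 to 0.0299 and of up to 0.0496). None of these alternatives took the mitochondrial share as a covariate.

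TIMP2 (chr17:78852977-78925387, minus strand, ENSG00000035862) is the inhibitor that joins MMP14 and the MMP2 precursor. In PSN1 it had 184, 149, 97.9 and 109 CPM with AM9747, against 111, 38.4, 25.7 and 44.8 CPM with vehicle. Vehicle replicate 1 stood above 2 of the AM9747 libraries, and the difference of 1.28 ± 0.40 did not pass the test (edgeR adjusted p = 0.0665). Without that library it was 1.84 ± 0.30 and passed (adjusted p = 0.00384). It also passed in 6 further alternatives, DESeq2 and voom among them, while with the mitochondrial share as a covariate it was 0.74 ± 0.26 (adjusted p = 0.126), and over the 17 alternatives the adjusted p ran from 0.00238 to 0.17.

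In BXPC3, TIMP2 had 265, 286, 227 and 201 CPM with AM9747 and 246, 254, 224 and 190.0 CPM with vehicle (0.14 ± 0.14, edgeR adjusted p = 0.49). In MIAPACA2 it had 674, 549, 897 and 695 CPM with AM9747 and 725, 1070.0, 975 and 623 CPM with vehicle (−0.22 ± 0.18, edgeR adjusted p = 0.465; −0.21 ± 0.07 with the mitochondrial covariate, adjusted p = 0.025, the smallest of 17 alternatives, of which the largest was 0.843). Groups overlapped in both. PSN1 minus BXPC3 was 1.17 ± 0.44 (edgeR adjusted p = 0.0925) and passed under DESeq2 (0.0446) and without vehicle replicate 1 of PSN1 (5.11e-04), the largest of 23 alternatives being 0.198. PSN1 minus MIAPACA2 was 1.56 ± 0.44 for TIMP2 (edgeR adjusted p = 0.0253; voom 1.68 ± 0.41, adjusted p = 0.0156), a call that was lost in the fit of the 2 lines alone (adjusted p = 0.0829, the largest of 23 alternatives, of which the smallest was 8.56e-05). It was also lost without vehicle replicate 2 or 3 or AM9747 replicate 1 or 2 of MIAPACA2, and without vehicle replicate 2 or 4 or AM9747 replicate 1 of PSN1 (adjusted p = 0.0509 to 0.065).

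TIMP3 (chr22:32801701-32863043, plus strand, ENSG00000100234) binds the matrix and also blocks ADAM and ADAMTS proteases. In PSN1 it had 144, 107, 75.6 and 91.3 CPM with AM9747, against 70.5, 23.2, 19.4 and 22.5 CPM with vehicle. The groups did not overlap, with vehicle replicate 1 again the highest of its group, and TIMP3 rose by 1.61 ± 0.40 on the log2 scale (edgeR adjusted p = 0.0297). Without vehicle replicate 1 the difference was 2.22 ± 0.26 (adjusted p = 0.00125), and with the mitochondrial share as a covariate it was 1.11 ± 0.26 (adjusted p = 0.0318). The call was lost without vehicle replicate 2, 3 or 4, or AM9747 replicate 1, 2 or 4 (adjusted p = 0.0574 to 0.0969), and over the 17 alternatives the adjusted p ran from 5.92e-04 to 0.0969.

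In BXPC3, TIMP3 had 787, 626, 483 and 462 CPM with AM9747, against 441, 441, 393 and 322 CPM with vehicle. All AM9747 libraries stood above all vehicle libraries, and TIMP3 rose by 0.60 ± 0.18 (edgeR adjusted p = 0.0279), 1.52-fold. The call was lost in the joint fit (adjusted p = 0.32), with no filter on low counts (0.0552), and without vehicle replicate 1 or 3 or AM9747 replicate 1 or 2 (0.0548 to 0.0784), over a range of 1.31e-04 to 0.32 in the 17 alternatives. PSN1 minus BXPC3 was 1.03 ± 0.48 (edgeR adjusted p = 0.184) and passed without vehicle replicate 1 of PSN1 (1.72, adjusted p = 0.00134, the smallest of 23 alternatives, of which the largest was 0.342). MIAPACA2 had no count of TIMP3 in any of its 8 libraries. TIMP3 lies within SYN3 on the opposite strand, which averaged 169 CPM with AM9747 and 71.4 CPM with vehicle in BXPC3, and 233 CPM with AM9747 and 384 CPM with vehicle in PSN1. In MIAPACA2 SYN3 averaged 21.5 CPM with AM9747 and 10.9 CPM with vehicle, while TIMP3 had no count, so no SYN3 read was counted as TIMP3 there. In BXPC3 and PSN1, reads of TIMP3 and SYN3 likewise cannot be told apart where they overlap, as the strand setting of the counting is not given.

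In PSN1 the mitochondrial share differed between the groups along with these genes. Its part in the PSN1 results was not tested beyond the covariate fits already given. Differences between responses and vehicle comparisons were fitted without that covariate. Without vehicle replicate 1 of PSN1, MMP2 (2.01 ± 0.51, edgeR adjusted p = 0.0207), MMP14 (1.15 ± 0.26, 0.0131) and TIMP1 (−1.52 ± 0.27, 0.00487) passed as they did with it.

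**Figure D3:**
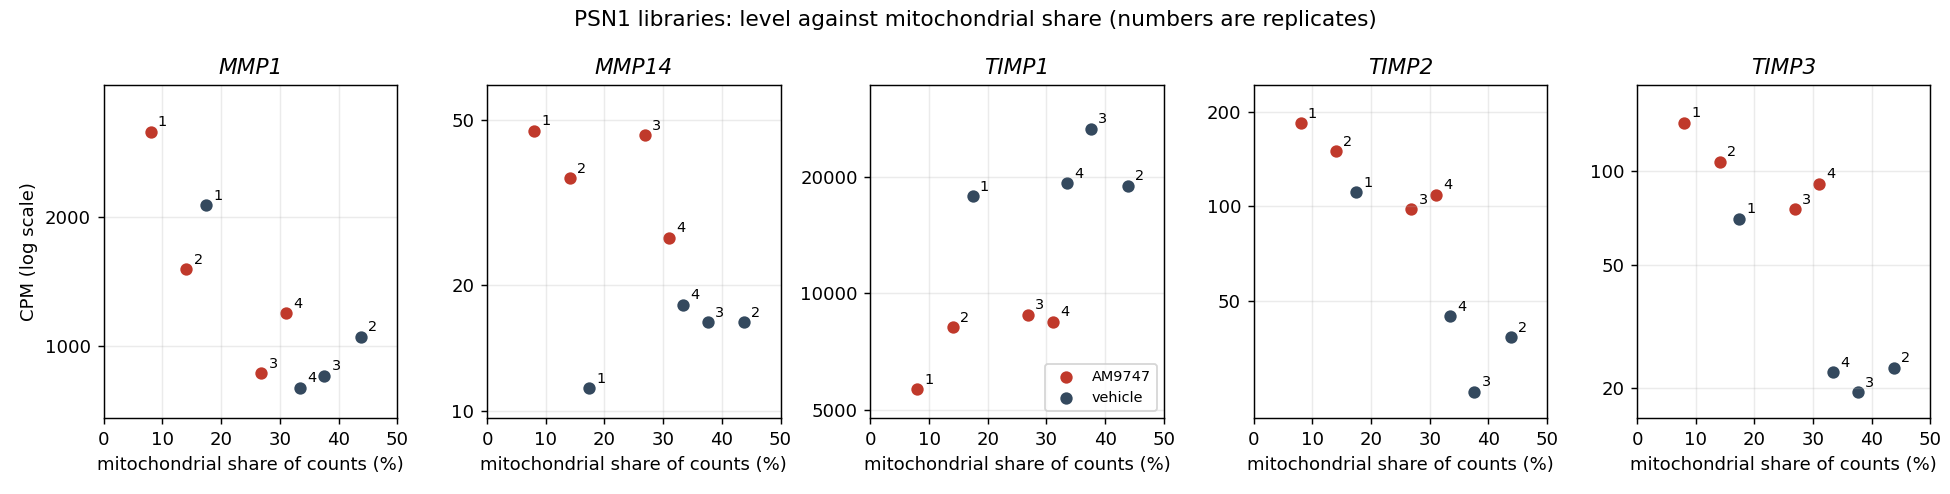
CPM of MMP1, MMP14, TIMP1, TIMP2 and TIMP3 (log scale) against the mitochondrial share of counts in each of the 8 PSN1 libraries, numbered by replicate. Vehicle replicate 1, at 17.4%, has 70.5 CPM of TIMP3 while the other vehicle libraries, at 33.5 to 43.8%, have 19.4 to 23.2 CPM. For TIMP1 the AM9747 libraries lie below all vehicle libraries. Replicate 1, which has the lowest share of each group, also has the lowest TIMP1 of each group.

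The members were chosen with earlier results of these data known, so the counts that follow describe the set and do not test it. Counted over the set, 3 of the 9 members that passed the filter on low counts were called in BXPC3, all higher with AM9747, where 29.2% of all genes tested were called, 13.2% as higher. In MIAPACA2 it was 1 of 5, which was higher, against 13.6% of all genes, 6.73% as higher and 6.84% as lower. In PSN1 it was 4 of 9, of which 3 were higher and 1 was lower, against 10.7% of all genes, 4.52% as higher and 6.17% as lower. Groups did not overlap for 5 members in BXPC3 (32.0% of all genes), for 1 in MIAPACA2 (20.8%) and for 4 in PSN1 (21.3%). The members left out by the filter were MMP2 in BXPC3, MMP7 in PSN1, and MMP2, MMP7, MMP9, MMP13 and TIMP3 in MIAPACA2. Of the differences in response, 1 member passed for MIAPACA2 minus BXPC3, with a positive difference (2.07% of all genes, 1.49% positive). For PSN1 minus BXPC3 2 members passed, 1 in each direction (8.33% of all genes, 4.75% positive and 3.58% negative), and for PSN1 minus MIAPACA2 3 passed, of which 1 was positive and 2 were negative (10.4%, 5.64% positive and 4.8% negative). A member with no count in a line, such as TIMP3 in MIAPACA2, gave no test of such a difference. On simulated data the edgeR tests missed most 2-fold changes, and all of them in PSN1 fitted alone (0% found). Each simulation changed 186 to 200 of the genes tested, fewer than were called in the data, so these shares need not hold for the data. A member that did not pass may therefore still have changed.

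Levels also differed between the lines, in fits that did not take the mitochondrial share as a covariate. Among vehicle libraries, 9 of 9 members tested differed between MIAPACA2 and BXPC3 (65.0% of all genes, 33.9% lower in MIAPACA2), 10 of 10 between PSN1 and BXPC3 (59.0%, 30.2% lower in PSN1), and 8 of 9 between PSN1 and MIAPACA2 (47.3%). The libraries of the 2 lines did not overlap for any of the members called, where this held for 59.7%, 57.5% and 48.6% of all genes in the 3 comparisons. MMP14 was the exception, with 15.5 ± 2.88 CPM in PSN1 and 11.4 ± 5.04 CPM in MIAPACA2 (SD, n = 4 libraries each; edgeR adjusted p = 0.281).

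With vehicle the collagenase MMP1 was highest in PSN1, then BXPC3, then MIAPACA2. PSN1 stood 43.3-fold above BXPC3 (log2 5.44 ± 0.36, edgeR adjusted p = 2.87e-06) and MIAPACA2 25.1-fold below BXPC3 (log2 −4.65 ± 0.44, edgeR adjusted p = 7.26e-06). MMP9 ran from BXPC3 over PSN1 (3.74-fold lower than BXPC3, edgeR adjusted p = 0.00193) to MIAPACA2 (90.9-fold lower than BXPC3, edgeR adjusted p = 1.41e-06). MMP13 had the same order, but its step from PSN1 to BXPC3 (log2 −1.30 ± 0.48, edgeR adjusted p = 0.0387) was lost in 8 of 14 alternatives (adjusted p = 0.0504 to 0.105, over a range of 0.0108 to 0.105), among them those without any 1 BXPC3 vehicle library and without PSN1 vehicle replicate 2.

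MMP7 was a gene of BXPC3 alone in vehicle, at least 30.7-fold lower in PSN1 and at least 49.1-fold lower in MIAPACA2, with the lines without a count set to 3 counts per library. MMP2 was a gene of PSN1, at least 23.9-fold higher there than in BXPC3 vehicle on the same bound. MMP14 and MMP15 were highest in BXPC3. MMP14 was 81.5-fold lower in PSN1 (edgeR adjusted p = 3.03e-07) and 115-fold lower in MIAPACA2 than in BXPC3 (edgeR adjusted p = 2.04e-07). MMP15 was 2.37-fold lower in MIAPACA2 (edgeR adjusted p = 7.22e-06) and 22-fold lower in PSN1 than in BXPC3 (edgeR adjusted p = 3.44e-07).

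Each TIMP was highest in a different line. TIMP1 was 50.8-fold higher in PSN1 than in BXPC3 (edgeR adjusted p = 2.01e-06) and 25.2-fold higher than in MIAPACA2 (edgeR adjusted p = 1.14e-06), and MIAPACA2 stood 2.03-fold above BXPC3 (edgeR adjusted p = 0.00401). TIMP2 was highest in MIAPACA2, 3.87-fold above BXPC3 (edgeR adjusted p = 4.33e-06), and lowest in PSN1, 3.82-fold below BXPC3 (edgeR adjusted p = 0.00212). TIMP3 was highest in BXPC3, 10.8-fold lower in PSN1 (edgeR adjusted p = 1.02e-04) and at least 5078-fold lower in MIAPACA2.

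Levels were set between genes after division by the exon length of each gene in GENCODE 29, with the exons of all its transcripts merged. That length can exceed the transcript expressed, by an amount that differs between genes, so comparisons between genes are approximate. On this scale of CPM per kilobase, MMP14 was the most abundant of the 7 MMPs in BXPC3, at 278 ± 66.0 with AM9747 and 313 ± 25.1 with vehicle (SD, n = 4 libraries each), near TIMP1 at 310 ± 85.2 with AM9747 and 291 ± 95.8 with vehicle. In PSN1, MMP1 held that place at 855 ± 520 with AM9747 and 614 ± 317 with vehicle, below TIMP1 at 5040 ± 932 with AM9747 and 13453 ± 2638 with vehicle. In MIAPACA2 MMP14 was at 20.7 ± 6.16 with AM9747, above MMP15 at 12.1 ± 1.89, while with vehicle MMP14 at 2.55 ± 1.13 lay below MMP15 at 13.1 ± 1.57.

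MMP14 and TIMP2 form the complex that activates MMP2. Their ratio per kilobase, on the same merged exon lengths, is given for each library as a description. In MIAPACA2 it was 0.193, 0.283, 0.0819 and 0.155 with AM9747, against 0.0245, 0.00634, 0.0122 and 0.0340 with vehicle. These groups did not overlap, and TIMP2 was the more abundant transcript in all 8 libraries. In PSN1 it was 0.323, 0.306, 0.592 and 0.302 with AM9747, against 0.129, 0.536, 0.800 and 0.507 with vehicle, with overlap. In BXPC3, MMP14 was the more abundant, with ratios of 5.49 to 7.24 with AM9747 and 6.66 to 8.60 with vehicle. The ratio of MMP1 to TIMP1 was 0.0999 to 0.347 with AM9747 and 0.0339 to 0.0709 with vehicle in BXPC3, and 0.0769 to 0.439 with AM9747 and 0.0249 to 0.0934 with vehicle in PSN1.

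**Figure D4:**
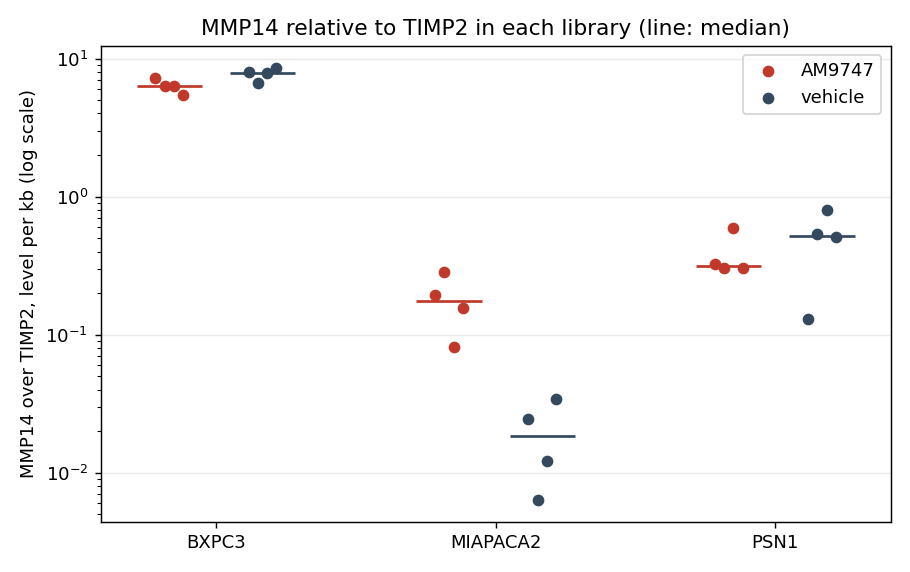
Ratio of MMP14 to TIMP2, each in CPM per kilobase of exon, in every library (log scale), with AM9747 left of vehicle in each line and a bar at the median. The medians are 6.34 with AM9747 and 7.92 with vehicle in BXPC3. They are 0.174 with AM9747 and 0.0183 with vehicle for MIAPACA2, 0.315 with AM9747 and 0.521 with vehicle for PSN1, and only in MIAPACA2 is every AM9747 library above every vehicle library.

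Another 17 MMP and TIMP genes of the table were listed, which leaves out MMP23A. In BXPC3, 6 of them were tested, 1 rose and 2 fell, with a median of 0.72 on the log2 scale and 29.2% of all genes called. MMP28, or epilysin, averaged 108 ± 9.99 CPM with AM9747 and 220 ± 48.6 CPM with vehicle (SD, n = 4 libraries each) and fell by 1.00 on the log2 scale (edgeR adjusted p = 0.00254). MMP10, a stromelysin beside MMP1 on chromosome 11, was at 0.592 ± 0.148 CPM with AM9747 and 0.0594 ± 0.103 CPM with vehicle (3.25 ± 0.89, edgeR adjusted p = 0.0213). That vehicle level lay below the mean level of 3 counts in the group (0.080 CPM after scaling), so the size of this change is uncertain. In PSN1, 9 were tested, 1 rose and 2 fell, with a median of 0.67 and 10.7% of all genes called. MMP28 fell there too, with 1.15 ± 0.311 CPM with AM9747 and 4.62 ± 1.00 CPM with vehicle (−2.03 ± 0.47, edgeR adjusted p = 0.023). MMP25, a membrane-anchored MMP of leukocytes, moved in opposite directions, to 1.00 ± 0.313 CPM with AM9747 against 3.05 ± 0.543 CPM with vehicle in BXPC3 (−1.57 ± 0.27, edgeR adjusted p = 0.00238), and to 5.50 ± 3.12 CPM with AM9747 against 0.305 ± 0.367 CPM with vehicle in PSN1 (4.06 ± 1.09, edgeR adjusted p = 0.0388). The difference between these 2 responses was not tested. In MIAPACA2 none of 8 tested passed, with a median of 0.23 and 13.6% of all genes called. Test results of genes outside the 10 members, here and below, are from the fit of each line alone, without the alternatives. In PSN1, leaving out 1 library gave as few as 530 genes called, against 1954 with all libraries.

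Genes that activate or restrain MMPs were read from a list of 27, which holds the plasminogen activators, their receptor and inhibitors, proprotein convertases, kallikreins and trypsins. In BXPC3 4 of 24 tested rose and 6 fell, in MIAPACA2 2 of 18 rose and 3 fell, and in PSN1 2 of 22 rose and 2 fell, the 3 medians being −0.04, 0.04 and 0.23 on the log2 scale beside 0.00, −0.00 and 0.03 over all genes, of which 29.2% were called in BXPC3, 13.6% in MIAPACA2 and 10.7% in PSN1. PLAUR, the urokinase receptor that focuses plasmin formation at the cell surface, averaged 105 ± 11.1 CPM with AM9747 and 59.4 ± 11.4 CPM with vehicle in BXPC3 (0.86 ± 0.17, edgeR adjusted p = 0.00431). In MIAPACA2 PLAUR averaged 37.1 ± 4.29 CPM with AM9747 and 15 ± 1.58 CPM with vehicle (1.35 ± 0.13, edgeR adjusted p = 3.91e-04). The plasminogen activator genes moved apart in PSN1. PLAU, urokinase, rose there to 81.1 ± 13.7 CPM with AM9747 against 27.2 ± 12.4 CPM with vehicle (1.55 ± 0.34, edgeR adjusted p = 0.0187), and PLAT, the tissue-type activator, fell to 640 ± 51.5 CPM with AM9747 against 1510 ± 190 CPM with vehicle (−1.27 ± 0.20, edgeR adjusted p = 0.00464). PRSS1, cationic trypsinogen, which belongs to the acinar cells of the normal pancreas, fell in PSN1 to 1.43 ± 0.734 CPM with AM9747 against 93.7 ± 11.1 CPM with vehicle (−6.05 ± 0.46, edgeR adjusted p = 1.87e-04).

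Of 27 transcription factors known to bind MMP promoters, 6 of 26 tested rose and 4 fell in BXPC3, 3 of 25 rose and 6 fell in MIAPACA2, and 5 of 25 rose and 4 fell in PSN1. The medians in the same order of lines were 0.11, −0.26 and −0.18 on the log2 scale, beside 29.2%, 13.6% and 10.7% of all genes called. EGR1, an immediate early factor, was among those that fell in each line, to 151 ± 14.2 CPM with AM9747 against 295 ± 13.8 CPM with vehicle in BXPC3 (−0.93 ± 0.10, edgeR adjusted p = 2.26e-04), to 34 ± 5.06 against 266 ± 36.5 CPM in MIAPACA2 (−2.93 ± 0.16, edgeR adjusted p = 3.75e-05), and to 117 ± 24 against 499 ± 135 CPM in PSN1 (−2.14 ± 0.27, edgeR adjusted p = 0.00199). In MIAPACA2, where MMP14 rose, the AP-1 subunits FOS (−3.21 ± 0.28, edgeR adjusted p = 2.63e-04), FOSB (−1.87 ± 0.26, 0.00146) and JUN (−1.60 ± 0.21, 0.0012) fell. In BXPC3, where MMP1 and MMP9 rose, SNAI1 rose to 6.60 ± 0.596 CPM with AM9747 against 2.81 ± 0.0999 CPM with vehicle (1.27 ± 0.15, edgeR adjusted p = 3.69e-04). ATF3 also rose there (0.96 ± 0.13, edgeR adjusted p = 5.73e-04), while ELF3 fell (−0.82 ± 0.13, edgeR adjusted p = 0.00159). Of these, no factor was tied to a member by a test.

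Basement membrane and pericellular proteins, substrates of these proteases, were read from a list of 24. In BXPC3 3 of 21 tested rose and 4 fell, in MIAPACA2 1 of 17 rose and 3 fell, and in PSN1 5 of 23 rose and 3 fell, with medians of −0.20, −0.10 and 0.99 on the log2 scale beside 29.2%, 13.6% and 10.7% of all genes called. SPARC, a collagen-binding matrix protein, rose in PSN1 to 62.4 ± 28.6 CPM with AM9747 against 6.16 ± 4.52 CPM with vehicle (3.31 ± 0.57, edgeR adjusted p = 0.00713) and in BXPC3 to 3.67 ± 0.635 CPM with AM9747 against 0.982 ± 0.285 CPM with vehicle (1.94 ± 0.26, edgeR adjusted p = 5.70e-04). COL4A1, a chain of type IV collagen and thus a gelatinase substrate, rose in BXPC3 to 6.74 ± 1.5 CPM with AM9747 against 1.59 ± 1.02 CPM with vehicle (2.13 ± 0.47, edgeR adjusted p = 0.0078). COL7A1, the collagen of anchoring fibrils, fell in PSN1 to 826 ± 306 CPM with AM9747 against 2627 ± 705 CPM with vehicle (−1.71 ± 0.33, edgeR adjusted p = 0.0109).

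The ADAM and ADAMTS genes are relatives of the MMPs, and TIMP3 blocks the products of some of them, not all. Of 20 such genes, 2 of 14 tested rose and 2 fell in BXPC3, 2 of 9 rose and 1 fell in MIAPACA2, and 1 of 16 rose and 1 fell in PSN1, while 29.2%, 13.6% and 10.7% of all genes were called. Their medians in these lines were 0.04, −0.20 and 0.18. ADAMTS9, which cuts proteoglycans, rose in PSN1 to 122 ± 13.3 CPM with AM9747 against 58.0 ± 4.79 CPM with vehicle (1.04 ± 0.19, edgeR adjusted p = 0.00898). In MIAPACA2, ADAMTS4, an aggrecanase, rose to 8.01 ± 1.37 CPM with AM9747 against 3.46 ± 1.52 CPM with vehicle (1.26 ± 0.28, edgeR adjusted p = 0.0144). ADAM15 fell in BXPC3 to 148 ± 7.01 CPM with AM9747 against 230 ± 23.7 CPM with vehicle (−0.60 ± 0.12, edgeR adjusted p = 0.0042).

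Markers of stromal cells, the other usual source of MMPs and TIMPs in tumours, were also read, with those of other cell types. The counts called stand beside 29.2% of all genes called in BXPC3, 13.6% in MIAPACA2 and 10.7% in PSN1. Summed over COL1A1, COL1A2, COL3A1, DCN, LUM, PDGFRB, PDGFRA and FAP, the 8 fibroblast markers were at 47.5 to 58.5 CPM with AM9747 and 27.5 to 35 CPM with vehicle in BXPC3, and 4 of the 4 tested rose. In PSN1 the sum was 192 to 229 CPM with AM9747 and 48.3 to 89.4 CPM with vehicle, and 1 of 7 tested, COL3A1, rose (1.97 ± 0.32, edgeR adjusted p = 0.00503). In MIAPACA2 it was 914 to 1571 CPM with AM9747 and 1601 to 2849 CPM with vehicle, of which COL1A2 made up most, and 1 of 3 tested, COL1A2, fell (−0.87 ± 0.20, edgeR adjusted p = 0.0178), with LUM at 0 in AM9747 and COL3A1, DCN and FAP at 0 in vehicle libraries. Leukocyte markers, 8 in all, summed to 5.51 to 87.4 CPM in the 24 libraries, and CD3E was at 0 in MIAPACA2 and PSN1. Of these, 1 rose and 1 fell in BXPC3, 1 rose in MIAPACA2 and none of 5 tested passed in PSN1. Of 8 mesenchymal markers, 3 rose in BXPC3, 3 of 7 tested rose in PSN1, SPARC and SNAI2 among them in both, and none of 7 passed in MIAPACA2. The sum of the 8 mesenchymal markers overlapped between the AM9747 and vehicle groups in BXPC3 and in PSN1. In MIAPACA2 that sum was 5949 to 7496 CPM with AM9747, below the 8244 to 9410 CPM with vehicle. Of 8 epithelial markers, 2 fell in BXPC3 (MUC1 and KRT19), 2 of 6 rose in MIAPACA2 and 1 fell in PSN1. Of 6 endothelial markers, 3 rose and 1 fell in BXPC3, 1 fell in PSN1 and none passed in MIAPACA2, where their sum was at most 0.637 CPM. The part of any of these in the member results was not tested.

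The genes whose levels ran most like those of a member over the 6 groups were found by the root-mean-square difference of their centred mean log2 CPM among 14458 protein-coding genes. TIMP2 was closest to SNX3 (0.106 on the log2 scale, against a spread of 1.40 for TIMP2 itself) and AGTPBP1 (0.200). MMP7 was closest to LRATD1 (0.085) and SPRR3 (0.161), and MMP2 to RTN1 (0.150) and TOX3 (0.200). TIMP1 was closest to RGS11 (0.226) and LEAP2 (0.321), MMP15 to H3C6 (0.213) and SLC44A2 (0.241), and MMP13 to AIM2 (0.236) and LPAR3 (0.248). TIMP3 was closest to COL12A1 (0.351) and SLC1A3 (0.727), MMP9 to ANKRD22 (0.391) and RNASE1 (0.453), MMP14 to KLC3 (0.537) and TNF (0.554), and MMP1 to EPS8L3 (0.572) and STC1 (0.639). These measures rest on 6 group means and describe likeness of level only.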

How the data were processed

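Strand-specific poly(A) libraries were sequenced from 3 lines given AM-9747 or DMSO, with 4 libraries in each of 6 groups. The deposited table holds whole-number read counts per gene, not normalized. The submitters' processing notes name fastp 0.19.8, HISAT2 2.2.0, R 4.0.2, DESeq2 1.34.0 and the builds GRCh38 and hg38. The read counter and its strand setting, like the annotation behind the table, were not given in the sources used here. Library totals ran from 22.4 to 45.6 (in units of 1e6 counts), and intervals and limits cover counting error only. No replicate pair agreed within sampling noise (lowest chi-square per gene 7.14).

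Each line was fitted alone with edgeR 4.0.16 (R 4.3.3; TMM scaling, low-count filter by group, quasi-likelihood test), with Benjamini-Hochberg adjustment over all genes tested (BXPC3 17638, MIAPACA2 18090, PSN1 18287) and a threshold of 0.05. Differences between responses came from a joint fit of all 24 libraries, and vehicle comparisons from the 8 vehicle libraries of 2 lines. The scripts were tested on simulated data, where the joint fit made too many false calls for differences that involve PSN1, the line with the widest spread, and voom with weights by group made fewer but still too many. Each simulation changed 186 to 200 of the genes tested, fewer than were called in the data, so its shares need not hold for the data. Lines fitted alone found 45.6% of simulated 2-fold changes in BXPC3, 43.3% in MIAPACA2 and 0% in PSN1. For 4-fold changes it was 86.9%, 83.6% and 45.8%. The joint edgeR fit found 1.45 to 2.9% of 2-fold and 42.2 to 60.9% of 4-fold differences in response. A result that did not pass therefore does not show that a change was absent. Alternatives were DESeq2 1.42.0, voom in limma 3.58.1, other scalings and filters, the replicate block, and leaving out each library. The mitochondrial share was a covariate only in fits of a line alone, not in differences between responses or vehicle comparisons. Vehicle comparisons had no voom fit.

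The members and lists were chosen with earlier results of these data known. Named from each other list were up to 4 genes per line with the largest log2 change among those that passed, and, for each member, the 2 protein-coding genes most like it. Replicate numbers were checked for pairing by the correlation of deviations from group means over 12063 genes. It ran from −0.428 to 0.629 and exceeded 0.1 for all 4 numbers in no line, so the numbers were not taken as pairs. Gene positions and exon lengths are from GENCODE 29, which matched 56271 of 60366 entries.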

Additional observations from a re-analysis of the deposited data

Results flagged for a closer look

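Of 50 groups of 4 libraries checked with Dixon's criterion, 5 had a library far from the other 3, where chance gives about 1 in 20. TIMP3 was at 70.5 CPM in vehicle replicate 1 of PSN1, against 19.4 to 23.2 CPM in the other vehicle libraries. TIMP1 was at 26759 CPM in vehicle replicate 3 of PSN1, against 17863 to 19289 CPM in the others. In vehicle replicate 4 of BXPC3, TIMP1 was at 669.6 CPM, against 361 to 383 CPM in the others, and MMP9 at 12.8 CPM, against 9.62 to 10.1 CPM. MMP7 was at 0.299 CPM, or 10 counts, in AM9747 replicate 3 of PSN1, against 0 to 0.0236 CPM in the others.

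The response to AM9747 differed between lines for 3 genes in the joint edgeR fit. For MMP14 the difference was 3.16 on the log2 scale for MIAPACA2 minus BXPC3, 1.48 for PSN1 minus BXPC3 and −1.69 for PSN1 minus MIAPACA2. For TIMP1 it was −1.52 for PSN1 minus BXPC3 and −1.29 for PSN1 minus MIAPACA2. For TIMP2 it was 1.56 for PSN1 minus MIAPACA2. On simulated data this fit made too many false calls for differences that involve PSN1. Under voom both MMP14 differences with PSN1 were lost (adjusted p = 0.0902 for PSN1 minus BXPC3 and 0.0613 for PSN1 minus MIAPACA2). The TIMP2 call was lost in the edgeR fit of the 2 lines alone (adjusted p = 0.0829) and in 7 fits that left out 1 library.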

How the results depend on the processing

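Over all comparisons and the alternatives run, 428 of 462 values of single members kept their direction and side of the threshold outside the fits that left out a library, and 622 of 664 in those fits. The calls of MMP1 and MMP9 in BXPC3, MMP14 in MIAPACA2, MMP14 for MIAPACA2 minus BXPC3 and TIMP1 in both differences held under every alternative run. The mitochondrial covariate was run for each line fitted alone, and not for these differences. Signs turned only for values that did not pass: MMP15 in MIAPACA2 (0.08 without scaling, 0.01 with a minimum of 5 CPM, 0.01 without AM9747 replicate 2), TIMP1 in MIAPACA2 (0.06 without scaling), TIMP1 in BXPC3 (−0.06 without AM9747 replicate 4) and MMP1 in PSN1 (−0.27 with the mitochondrial covariate, −0.03 without AM9747 replicate 1). Leaving out 1 library gave −0.15 to 0.01 for MMP15 in MIAPACA2, −0.06 to 0.41 for TIMP1 in BXPC3 and −0.03 to 0.85 for MMP1 in PSN1. The cause was not tested.

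Genes called in BXPC3 (5158) became 9598 with voom, 8025 with the mitochondrial covariate and 2414 in the joint fit, and members called (3) became 5 with voom and 5 with the covariate. In MIAPACA2 (2456) they became 3708 with DESeq2, 5192 with voom, 6382 with the covariate and 1151 in the joint fit, and members (1) became 3 with the covariate. In PSN1 (1954) they became 3652 with DESeq2, 5485 with voom and 5762 in the joint fit. For MIAPACA2 minus BXPC3 (474) they became 1128 with DESeq2, 1526 with voom and 1499 in the fit of 2 lines, and members (1) became 2 with DESeq2. For PSN1 minus BXPC3 (1906) they became 3421 with DESeq2, and members (2) became 1 with voom and 4 with DESeq2. For PSN1 minus MIAPACA2 (2388) they became 3785 with DESeq2 and 1215 in the fit of 2 lines.

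With the replicate block, genes called were 7119 in BXPC3, 1700 in MIAPACA2, 3355 in PSN1, 584 for MIAPACA2 minus BXPC3, 3286 for PSN1 minus BXPC3 and 3776 for PSN1 minus MIAPACA2. Between vehicles they were 12445 for MIAPACA2 over BXPC3, 9509 for PSN1 over BXPC3 and 7116 for PSN1 over MIAPACA2. Members called with the block were 4 in BXPC3, 5 in PSN1 and 5 for PSN1 minus BXPC3. Gained were MMP7 in BXPC3 (−0.80), TIMP2 in PSN1 (1.44), and MMP1 (−1.49), TIMP2 (1.36) and TIMP3 (1.24) for PSN1 minus BXPC3, and MMP13 was lost for vehicle PSN1 over BXPC3 (−1.44). The AM9747 library correlated best with the vehicle library of its own number for 2 of 4 numbers in BXPC3, 2 of 4 in PSN1 and 0 of 4 in MIAPACA2.

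Leaving out 1 library gave 3707 to 6763 genes and 2 to 3 members in BXPC3, 1142 to 3243 genes and 1 to 1 member in MIAPACA2, and 530 to 4370 genes and 0 to 5 members in PSN1. It gave 307 to 445 genes and 1 to 1 member for MIAPACA2 minus BXPC3, 1132 to 5279 genes and 1 to 5 members for PSN1 minus BXPC3, and 1412 to 5392 genes and 2 to 3 members for PSN1 minus MIAPACA2. Between vehicles it gave 11185 to 13167 genes for MIAPACA2 over BXPC3, 9449 to 12002 for PSN1 over BXPC3 and 7142 to 10022 for PSN1 over MIAPACA2.

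Without scaling of library totals the median log2 change over all genes was 0.147 in MIAPACA2 and 0.369 in PSN1. Calls were then 1922 higher and 637 lower in MIAPACA2 (1218 and 1238 with scaling), 1212 and 541 in PSN1 (826 and 1128), 509 and 72 for MIAPACA2 minus BXPC3 (341 and 133), 1843 and 492 for PSN1 minus BXPC3 (1087 and 819), and 3257 and 5670 for vehicle PSN1 over MIAPACA2 (4578 and 3965). The depth limits MMP2, MMP7, MMP9 and MMP13 in lines with few counts.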
